A study of Mus musculus with 61 samples.

Results

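B6 and WSB are inbred founder strains of the Diversity Outbred mouse stock, and both belong to the subspecies Mus musculus domesticus. On high-fat diets B6 is known as a strain prone to obesity and WSB as one that stays lean. Liver RNA of the 7 B6 libraries (numbered 1 to 4 and 6 to 8) was compared with that of the 8 WSB libraries (numbered 1 and 3 to 9), chosen by strain name alone from the 60 libraries of 8 strains. Every mouse received a high-fat, high-sugar diet, labelled 45% fat, and no group had another treatment, so each difference is one between strains that shared a diet. The labels give no genotype beyond the strain name, and no sex, age or collection time, and body weights were not analysed here. They also do not state that each library came from a separate mouse. A p-value here therefore reflects how libraries within strains varied, over all 60 libraries unless fewer are named, whether or not that variation is technical.

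In the liver of obese mice, surplus fatty acids are esterified to triglyceride and stored in lipid droplets. PPARG, a nuclear receptor that is low in lean liver, drives genes of lipid uptake and droplet coating there, while SREBP transcription factors drive fatty acid and cholesterol synthesis and PPARA drives fatty acid oxidation. Kupffer cells, the resident macrophages of the liver, and macrophages and lymphocytes that enter from blood are known to change in number and state in fatty liver, and interferons induce a shared set of antiviral genes in most of these cells. In bulk RNA, more cells of a type and more RNA per cell cannot be told apart.

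Depth ranged from 19.98 to 38.2 M reads in B6 and from 21.9 to 44.9 M in WSB. Mitochondrial genes took 5.40 to 7.61% of reads in B6 and 5.95 to 7.51% in WSB, and the 18S ribosomal sequence Rn18s-rs5 took 3.63 to 7.37% and 1.26 to 5.14%. Between 17891 and 18323 genes had reads in a B6 library and between 17401 and 17898 in a WSB library. The reference genome is that of a B6 mouse, and the part of reference mapping in any single difference was not tested. Each library was most like another of its own strain across genes. Xist, a noncoding RNA made from the silenced X chromosome in females, was at 830 to 1113 CPM (reads of the gene scaled to a fixed total per library) in B6 1 to 4 and at 0.246 to 7.34 CPM in B6 6 to 8. In WSB it was at 646 to 874 CPM in libraries 1, 3, 4 and 9 and at 0.491 to 3.78 CPM in libraries 5 to 8. Both strains therefore held about as many high-Xist as low-Xist libraries. The first principal component of the 15 libraries held 48.4% of the variance and separated the strains, and the second held 18.7% and followed Xist.

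**Figure D1:**
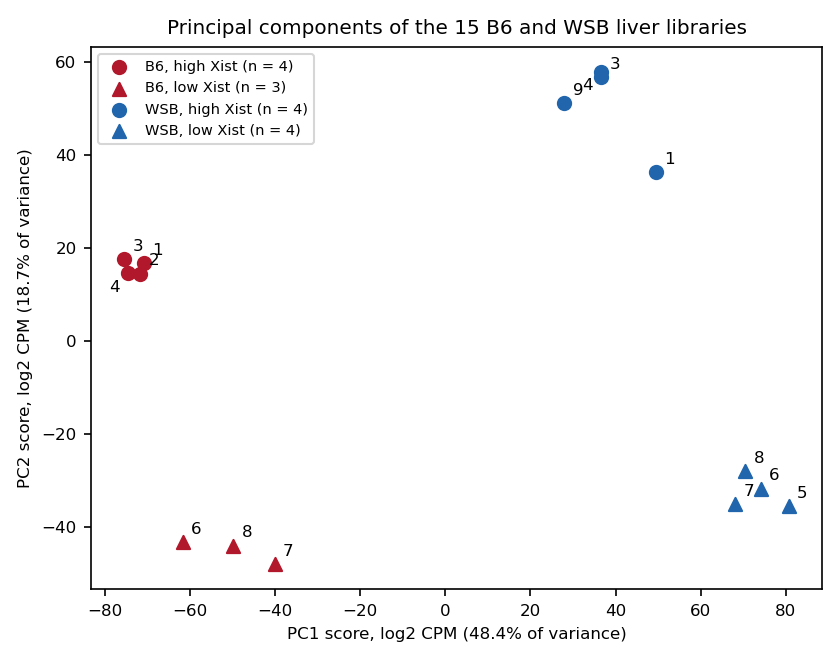
Scores of the 15 libraries on the first (x axis) and second (y axis) principal components of log2 CPM, with B6 in red, WSB in blue, circles for high Xist, triangles for low Xist and the label number beside each point. The strains separate along the first component (48.4% of variance) and high- from low-Xist libraries along the second (18.7%).

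Of 16165 genes tested, 7149 (44.2%) passed an adjusted p of 0.05 in edgeR's quasi-likelihood test with Benjamini-Hochberg adjustment, and such genes are described as called. Expression was higher in B6 for 3769 genes (23.3%) and lower for 3380 (20.9%). Of the called genes, 2569 (15.9% of those tested) differed by at least 1 on the log2 scale, and 1845 of these were higher in B6 and 724 lower. Levels in the libraries of the strains did not overlap for 1390 genes higher in B6 (8.6%) and 1219 lower (7.54%). The median log2 fold change of all genes, B6 minus WSB throughout, was 0.02. These shares are the background for every list count that follows, since a list with about 23.3% of members higher and 20.9% lower looks like the genome at large. On the autosomes 38.3% (chromosome 18) to 47.3% (chromosome 12) of genes were called.

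Gene lists covering lipid metabolism, immune cells, hepatocyte function and stress differed in their counts, and several, such as bile acid, P450 and conjugation genes, had members called in both directions and medians near that of all genes. Interferon, MHC class II, macrophage, lymphocyte, cholesterol synthesis and Pparg lists had medians well above that of all genes. Hepatocyte, complement, urea cycle, heat shock and major urinary protein lists had medians below it.

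**Figure D2:**
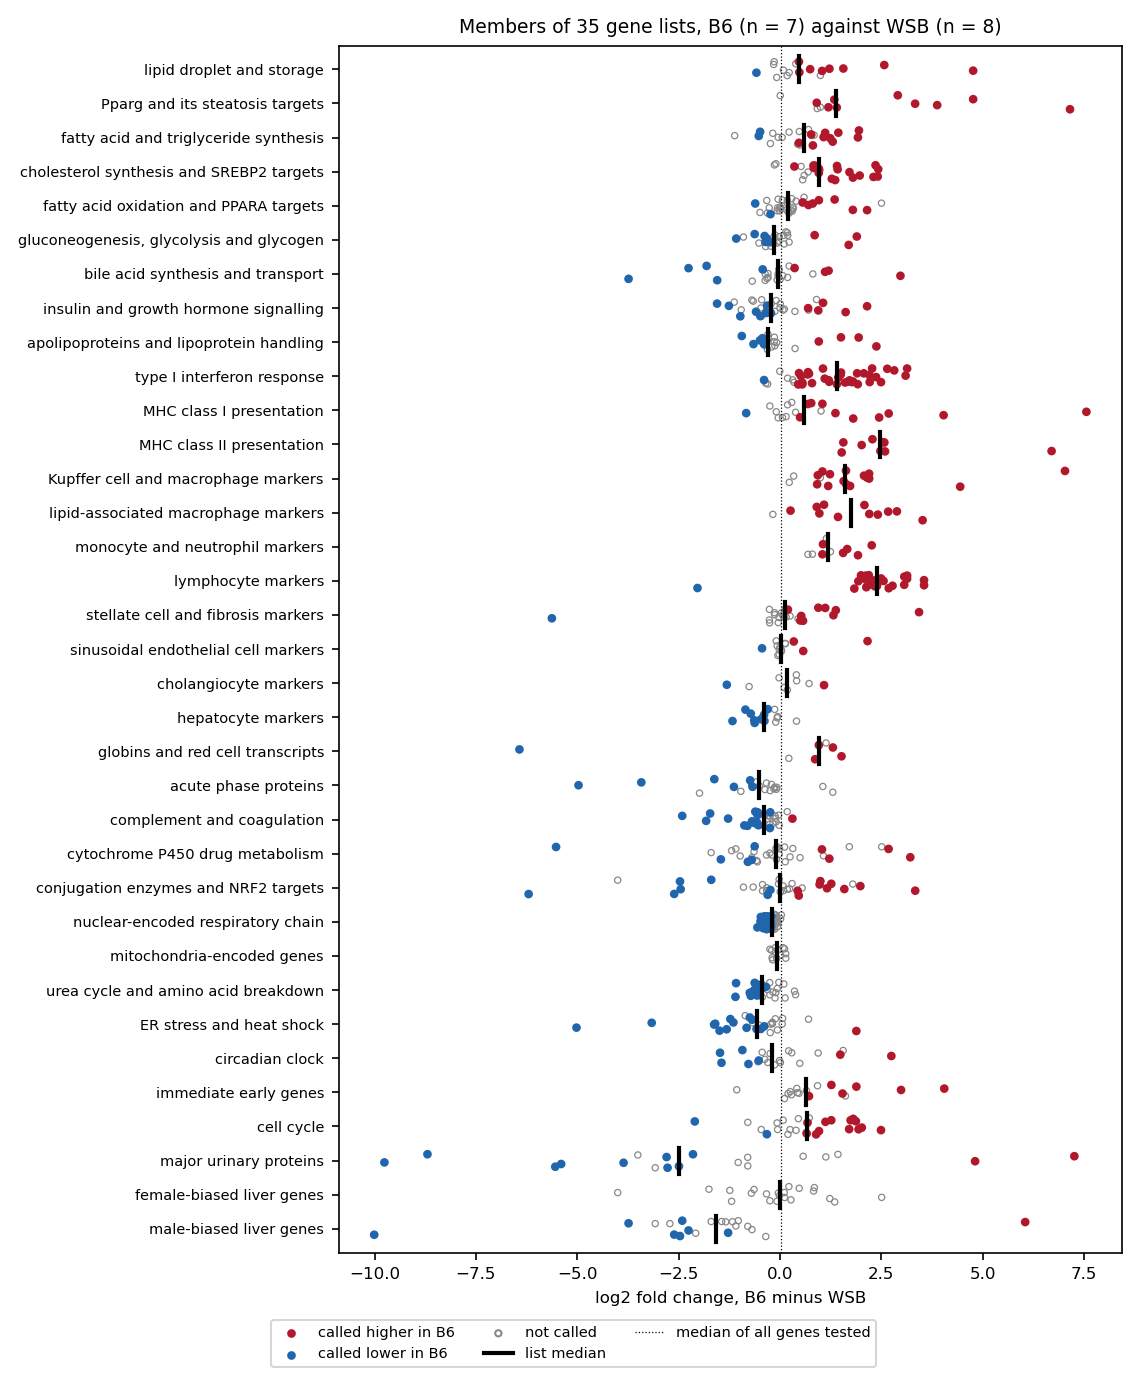
Log2 fold change, B6 minus WSB (x axis), of every tested member of 35 gene lists (rows), with called members filled in red (higher in B6) or blue (lower), other members open, a bar at each list's median and a dotted line at the median of all genes (0.02). The lymphocyte list has its median at 2.39 and the major urinary protein list at -2.49.

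Type I interferon genes formed the list with the most members higher in B6 by number. By share (82.9% of members), the MHC class II, lymphocyte, lipid-associated macrophage and Kupffer cell lists stood above it. Of 41 members tested, 34 rose in B6 against WSB and 1 fell, with a median log2 fold change of 1.40, where 23.3% and 20.9% of all genes did so, and for 26 members the libraries did not overlap (8.6% of all genes). Irf7, the transcription factor that amplifies interferon induction, was at 27.5 to 40.1 CPM in B6 (median 36.0) and at 3.95 to 7.56 CPM in WSB (median 6.54). No library of the other strain reached these levels, and its log2 fold change was 2.49 ± 0.29 (SE, edgeR adjusted p = 3.58e-10). Usp18, which restrains signalling from the interferon receptor, was at 6.39 to 11.6 CPM in B6 (median 9.26) and 0.829 to 2.21 CPM in WSB (median 1.16), and did not overlap either. Its log2 fold change was 2.82 ± 0.36 (edgeR adjusted p = 4.22e-09).

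Isg15, a ubiquitin-like protein conjugated to other proteins after interferon, was at 3.58 to 9.43 CPM in B6 (median 5.78) and 0.613 to 1.63 CPM in WSB (median 1.35). Ifit1, which binds viral RNA, was at 7.31 to 20.6 CPM in B6 (median 10.1) and 2.07 to 4.89 CPM in WSB (median 2.71). Neither gene's libraries overlapped, and their log2 fold changes were 2.21 ± 0.34 and 1.92 ± 0.40 (edgeR adjusted p = 3.91e-07 and 9.86e-05). Oasl2 (2.27), Mx1 (3.14) and Parp9 (0.79) rose as well. Stat2, a transcription factor of the interferon signalling complex, was the member that fell, with slight overlap, at 46.6 to 64.3 CPM in B6 (median 55.8) and 63.4 to 89.9 CPM in WSB (median 71.8) and a log2 fold change of -0.39 ± 0.13 (edgeR adjusted p = 0.0148). Mx2, an antiviral GTPase beside Mx1, was at 3.05 to 7.06 CPM in B6 and 3.16 to 8.94 CPM in WSB and was not called (log2 fold change -0.01 ± 0.35). B6 had the highest mean log2 level of the 8 strains for 17 of the 34 genes that rose, and WSB the lowest for 7. Of all 3769 genes higher in B6, B6 alone lay outside the range of the other 6 strains for 22.7%. WSB alone did so for 30.2% and both for 10.9%, so WSB at the bottom was no trait of this list. A second member fell with the block of label numbers, with Xist as a covariate, on the 15 libraries alone, without B6 2 and without WSB 9.

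Interferon acts on these genes through the interferon-stimulated response element, searched here as GAAA, any 2 bases and GAAA, on both strands of the RefSeq promoter windows (GRCm38.p6, 250 bases before to 50 after each start site). It was present in windows of 12 of the 26 called interferon genes that had one (46.15%) and of 3.993% of all 27025 genes with windows. Counting members called or not, 14 of the 30 with a window held the element. Stat2, which fell, is among the 12. The sequences are those of the B6-derived reference, and WSB sequence was not used. The 4 called members with the smallest p among those with the motif are shown 5′ to 3′ on the gene's strand, with 50 bases on each side and the matching bases in capitals, because they carry the element near genes that differed between the strains.
Oas3 (chr5:120777675-120777784, minus strand): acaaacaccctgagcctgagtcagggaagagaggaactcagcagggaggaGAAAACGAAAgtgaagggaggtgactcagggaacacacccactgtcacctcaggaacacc
Trim30a (chr7:104465170-104465279, minus strand): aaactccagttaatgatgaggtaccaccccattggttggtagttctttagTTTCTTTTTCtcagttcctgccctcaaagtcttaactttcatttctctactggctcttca
Isg15 (chr4:156200837-156200946, minus strand): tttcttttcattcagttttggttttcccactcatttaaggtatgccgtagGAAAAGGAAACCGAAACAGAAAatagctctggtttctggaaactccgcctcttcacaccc
Oas1a (chr5:120907486-120907595, minus strand): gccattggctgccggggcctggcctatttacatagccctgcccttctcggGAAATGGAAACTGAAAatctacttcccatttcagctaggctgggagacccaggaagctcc
Oas3 and Oas1a are sensors of double-stranded RNA, and Trim30a is a ubiquitin ligase family member of the mouse. In Isg15 the run in capitals holds 3 overlapping matches and in Oas1a it holds 2, while in Trim30a the match lies on the opposite strand. Oas3 rose by 3.10 on the log2 scale, Isg15 by 2.21, Oas1a by 1.61 and Trim30a by 1.44. Presence of the letters is a description and no measure of binding.

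MHC genes, which display peptides to T cells, were higher in B6 in both classes. All 9 class II genes tested rose (median 2.48), and the libraries of 8 did not overlap. H2-Ab1, a class II chain, was at 20.8 to 54.0 CPM in B6 (median 36.6) and 4.64 to 9.94 CPM in WSB (median 5.56). H2-Eb1 was at 19.2 to 53.4 CPM in B6 (median 32.8) and 0.1 to 0.708 CPM in WSB (median 0.289). Neither gene overlapped, with log2 fold changes of 2.48 ± 0.36 and 6.70 ± 0.51 (edgeR adjusted p = 9.71e-08 and 3.19e-16). Of 20 class I genes, 10 rose and 1 fell, with a median of 0.59. H2-D1, a classical class I heavy chain, was at 423 to 571 CPM in B6 (median 461) and 26.1 to 32.4 CPM in WSB (median 28.0), the lowest mean of the 8 strains, where the other 6 ranged from 95.4 to 346 CPM. Its log2 fold change was 4.04 ± 0.14 (edgeR adjusted p = 9.95e-31). H2-K1 rose by 2.45 and H2-Q6 by 2.68, and Tap2, a subunit of the peptide transporter, fell by 0.83, with no overlap in any of these. Class I genes are near-identical to one another and vary between strains in sequence, so reads could be split or lost between them, and this was not tested.

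Macrophage genes rose in B6 across resident and lipid-associated markers. Of 18 Kupffer cell and macrophage markers, 15 rose and none fell (median 1.60), and libraries did not overlap for 10. Adgre1, the F4/80 surface receptor, was at 17.1 to 53.5 CPM in B6 (median 38.4) and 4.84 to 13.4 CPM in WSB (median 7.58). Csf1r, the receptor for the macrophage growth factor, was at 57.6 to 137 CPM in B6 (median 106) and 24.1 to 48.1 CPM in WSB (median 29.2). Both were without overlap, with log2 fold changes of 2.20 ± 0.31 and 1.63 ± 0.24 (edgeR adjusted p = 6.09e-08 and 2.21e-07). Folr2, a folate receptor of resident macrophages, was at 7.06 to 17.7 CPM in B6 (median 12.5) and 0 to 0.211 CPM in WSB (median 0.0743). Cd68 rose by 1.73 and Fcgr1 by 2.15. B6 had the highest mean log2 level of the 8 strains for 11 of the 15 genes that rose. Of all genes higher in B6, B6 alone lay outside the range of the other 6 strains for 22.7%, and both strains for 10.9%. The summed level of the list was 528 to 1304 CPM in B6 and 271 to 543 CPM in WSB, with the lowest sums in B6 7 and WSB 9.

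Of 12 markers of lipid-associated macrophages, a state described in fatty tissue, 11 rose in B6 and none fell (median 1.76). Itgax, an integrin, was at 1.09 to 6.73 CPM in B6 (median 3.21) and 0.111 to 0.649 CPM in WSB (median 0.241). Its libraries did not overlap, and the log2 fold change was 3.52 ± 0.45 (edgeR adjusted p = 4.67e-09). Trem2, a lipid-sensing receptor of these cells, was at 0.263 to 1.62 CPM in B6 (median 0.689) and 0.0383 to 0.339 CPM in WSB (median 0.207), with overlap and a log2 fold change of 2.20 ± 0.49 (edgeR adjusted p = 0.000257). Gpnmb, a lysosomal glycoprotein, was at 0.234 to 4.43 CPM in B6 and 0.0250 to 0.472 CPM in WSB, with overlap. It rose by 2.88, or by 1.96 without B6 6. Capg (2.08) and Lgals3 (1.43) rose as well. Of 10 monocyte and neutrophil markers, 6 rose and none fell (median 1.20). Ccr2, the receptor that draws monocytes into tissue, was at 1.40 to 7.03 CPM in B6 (median 2.57) and 0.215 to 0.887 CPM in WSB (median 0.690). Csf3r rose by 1.56 and Plac8 by 1.05. Ccl2, the ligand of CCR2, rose by 1.92, and by 2.60 without WSB 6.

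Of 23 lymphocyte markers, 22 rose in B6 and 1 fell, with a median of 2.39. With the label number as a block, where the filter on low counts left 11 of them, 10 rose, and 10 rose on the 15 libraries alone. Ptprc, the CD45 antigen of all white blood cells, was at 10.9 to 39.5 CPM in B6 (median 26.9) and 3.99 to 9.46 CPM in WSB (median 6.52). It did not overlap, with a log2 fold change of 1.93 ± 0.29 (edgeR adjusted p = 2.09e-07). Cxcr6, found on liver-resident T and NKT cells, was at 0.600 to 1.94 CPM in B6 and 0.0739 to 0.422 CPM in WSB and rose by 2.78. Ighd, the IgD chain of naive B cells, rose by 3.14. Klrb1c, the NK1.1 antigen, was at 0.105 to 0.806 CPM in B6 and 0 to 0.105 CPM in WSB. Cd4 was the member that fell, by 2.03, and its WSB libraries divided into 4 at 7.42 to 9.49 CPM, those of low Xist, and 4 at 0.200 to 0.773 CPM. The adjusted p of Cd4 was 0.0112, 0.0623 with Xist as a covariate and 0.164 with the block, all by edgeR. The summed level of the lymphocyte markers was 37.9 to 74.0 CPM in B6 and 13.7 to 23.5 CPM in WSB.

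Lists for the other cell types of the liver were counted in the same way. Of 25 stellate cell and fibrosis markers, 9 rose in B6 and 1 fell (median 0.13), with 2 lower under the block and on the 15 libraries alone. Lrat, Reln, Des and Pdgfrb, which mark stellate cells themselves and were picked after their values were seen, were not called. Col1a1, the main fibrillar collagen, was at 10.3 to 31.7 CPM in B6 (median 16.4) and 4.51 to 12.5 CPM in WSB (median 5.91). Col3a1 was at 43.5 to 101 CPM in B6 (median 69.5) and 18.5 to 44.4 CPM in WSB (median 30.6). Both overlapped at the edges, with log2 fold changes of 1.38 ± 0.35 and 1.12 ± 0.33 (edgeR adjusted p = 0.00103 and 0.00467). Col6a3 rose by 1.32 and Lum by 0.95, both without overlap. Col5a2, a fibrillar collagen chain, went the other way, at 3.23 to 23.4 CPM in B6 (median 7.09) and 126 to 997 CPM in WSB (median 387). Its log2 fold change was -5.63 ± 0.51 (edgeR adjusted p = 1.51e-13), while its usual partner Col5a1, picked after its value was seen, was at -0.13 and not called.

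Of 14 sinusoidal endothelial markers 3 rose and 1 fell (median 0.02), with Lyve1 at 2.16, Mrc1 at 0.57, Cdh5 at 0.34 and Stab1 at -0.44. Lyve1 and Mrc1 are also made by macrophages. Of 9 cholangiocyte markers, Spp1 rose by 1.09 and Tspan8 fell by 1.31. Spp1 is also a marker of lipid-associated macrophages. With the block, 3 cholangiocyte markers rose and 1 fell. Globins and red cell genes, a measure of residual blood, had 4 of 7 members higher in B6 and 1 lower, 2 higher without B6 3. Hba-a2 was at 94.9 to 191 CPM in B6 and 54.8 to 114 CPM in WSB, while Hba-a1 was at 0.0899 to 1.35 CPM in B6 and 31.5 to 68.0 CPM in WSB. These near-identical genes can trade reads. The summed level of the list was 208 to 430 CPM in B6 and 186 to 374 CPM in WSB, and its part in the immune gene differences was not tested.

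**Figure D3:**
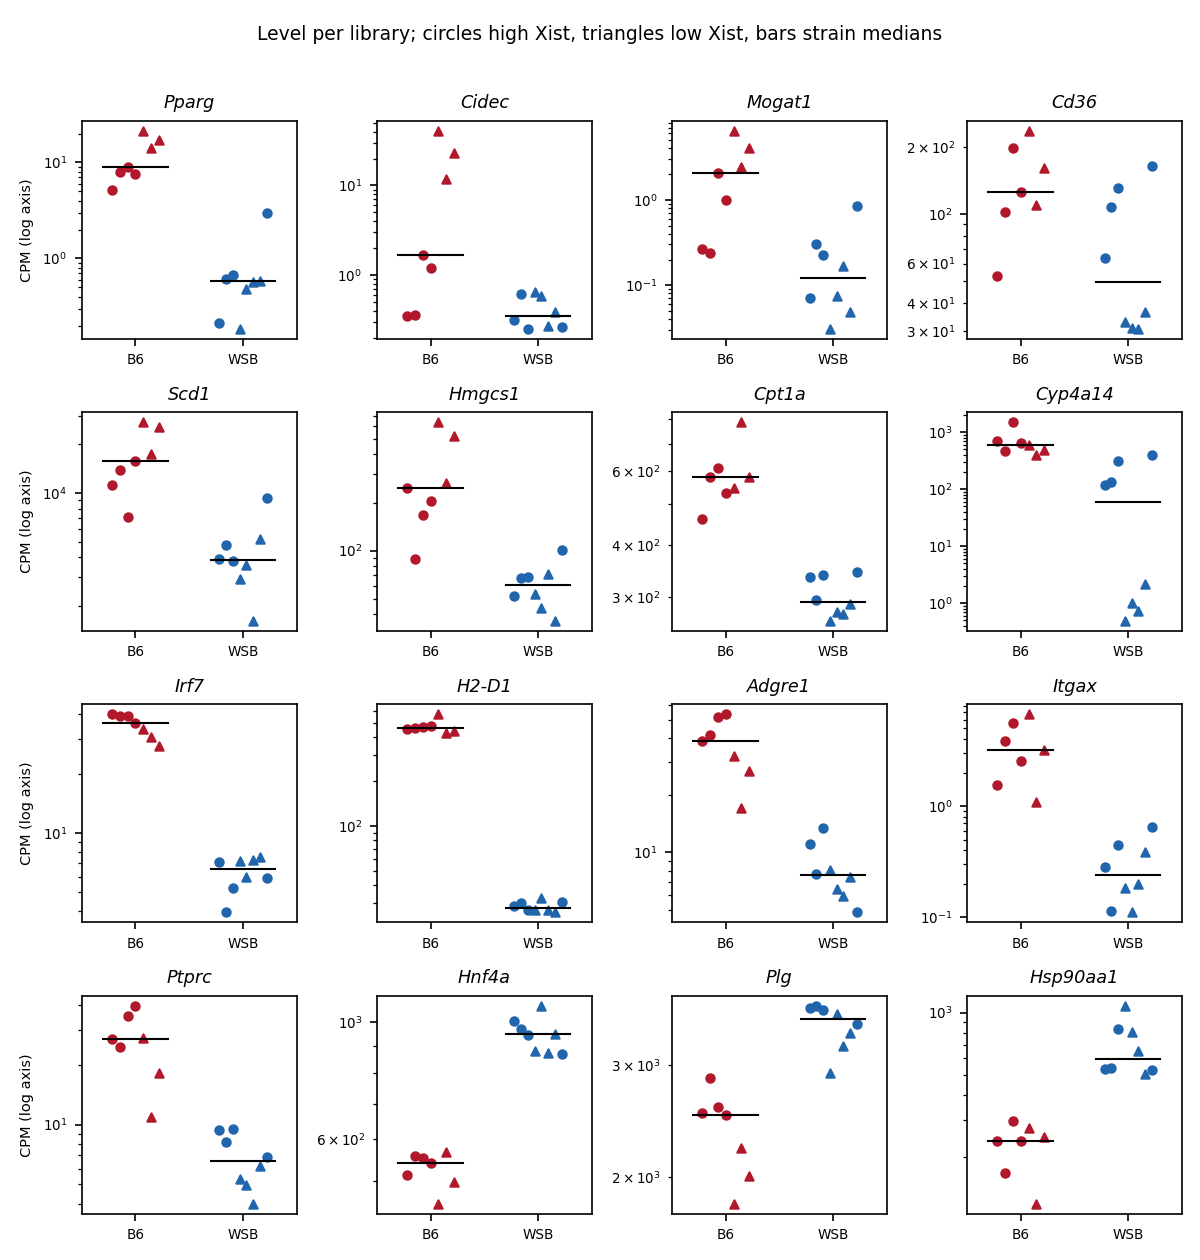
CPM per library on log axes for 16 genes of the lipid, interferon, immune, hepatocyte and heat shock lists, with B6 in red and WSB in blue, circles for high Xist, triangles for low Xist and bars at strain medians. Irf7, H2-D1 and Hnf4a show strains apart in every library, whereas Cyp4a14 and Cd36 in WSB divide by Xist.

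Pparg and the genes it drives in fatty liver were higher in B6. Of 12 tested, 9 rose and none fell (median 1.37), and 4 did not overlap. Pparg was at 5.11 to 21.4 CPM in B6 (median 9.06) and 0.184 to 2.98 CPM in WSB (median 0.576). No WSB library reached the lowest B6 library, and the log2 fold change was 3.88 ± 0.44 (edgeR adjusted p = 1.53e-10), or 4.62 without WSB 9. Cidec, which fuses lipid droplets, was at 0.350 to 40.9 CPM in B6 (median 1.66) and 0.250 to 0.645 CPM in WSB (median 0.352). Only B6 libraries exceeded 1 CPM, with 3 of them, of low Xist, above 10 CPM, and the log2 fold change was 4.76 ± 0.82 (edgeR adjusted p = 4.37e-06), or 3.92 without B6 6. Mogat1, an acyltransferase of triglyceride synthesis, was at 0.239 to 6.45 CPM in B6 and 0.0307 to 0.856 CPM in WSB. Its log2 fold change was 3.33 ± 0.66 (edgeR adjusted p = 4.43e-05), or 4.08 without WSB 9.

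Fabp4, a fatty acid carrier of fat cells and macrophages, was at 4.47 to 12.1 CPM in B6 (median 8.81) and 2.49 to 4.36 CPM in WSB (median 3.72). Ucp2, a mitochondrial carrier, was at 25.1 to 54.9 CPM in B6 (median 41.2) and at most 19.4 CPM in WSB (median 14.8). Neither overlapped, and they rose by 1.40 and 1.34. Cd36, the fatty acid translocase, was at 53.1 to 237 CPM in B6 (median 126) and 30.6 to 164 CPM in WSB (median 49.9), with wide overlap. It was not called (log2 fold change 0.92 ± 0.49, edgeR adjusted p = 0.123), but it passed with Xist as a covariate (1.22, edgeR adjusted p = 0.00536) and with the block (1.24, edgeR adjusted p = 0.0444). Of 17 lipid droplet genes, 8 rose and 1 fell (median 0.47). Lipe, the hormone-sensitive lipase, was at 10.2 to 28.3 CPM in B6 (median 14.1) and 4.80 to 8.68 CPM in WSB (median 6.22) and rose by 1.22. Plin2, the main droplet coat protein of hepatocytes, was at 314 to 843 CPM in B6 and 253 to 422 CPM in WSB (median 310), with overlap. It rose by 0.74 (edgeR adjusted p = 0.0136) and was not called without B6 6 (0.58, edgeR adjusted p = 0.0622). G0s2, an inhibitor of triglyceride breakdown, rose by 1.56, and Fitm2, a droplet formation protein, by 1.04. Hsd17b13, a droplet enzyme, was at 187 to 435 CPM in B6 and 403 to 502 CPM in WSB and fell by 0.58. Plin4 was not called (log2 fold change 1.00 ± 0.50).

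Fatty acid and triglyceride synthesis had 10 of 24 genes higher in B6 and 2 lower (median 0.60), the lower count becoming 1 without WSB 3, WSB 4 or B6 6. Scd1, the desaturase that makes monounsaturated fatty acids, was at 7091 to 27394 CPM in B6 (median 15765) and 1615 to 9344 CPM in WSB (median 3847). The ranges overlapped, and the log2 fold change was 1.95 ± 0.46 (edgeR adjusted p = 0.000514). Fads2 was at 442 to 907 CPM in B6 (median 618) and 218 to 357 CPM in WSB (median 246), without overlap. Elovl5, which with Fads2 makes long polyunsaturated fatty acids, rose by 1.11, and Lpin1, a phosphatidate phosphatase, by 1.92. Fasn, the fatty acid synthase, was at 554 to 2349 CPM in B6 (median 1149) and 303 to 1252 CPM in WSB (median 694). Fasn and Srebf1, the factor that drives it, were not called (log2 fold changes 0.78 ± 0.44 and 0.48 ± 0.29). Agpat2, an acyltransferase, fell by 0.49.

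Cholesterol synthesis genes rose together, with 18 of 24 members higher in B6 and none lower (median 0.96). Libraries did not overlap for 2 of the 24, a share near the 8.6% of all genes that were higher in B6 without overlap. Hmgcs1, the HMG-CoA synthase, was at 88.9 to 636 CPM in B6 (median 246) and 36.4 to 101 CPM in WSB (median 60.5). Sc5d, a late enzyme of the pathway, was at 275 to 558 CPM in B6 (median 448) and 92.2 to 170 CPM in WSB (median 117). Sc5d did not overlap, and the log2 fold changes were 2.31 ± 0.37 and 1.80 ± 0.29 (edgeR adjusted p = 8.16e-07 and 1.53e-06). Msmo1 rose by 2.41 and Mvd by 2.36. B6 6 had the highest summed level of the list, 5093 CPM, where B6 2 had 1947 CPM and WSB libraries 1351 to 2236 CPM.

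The sterol regulatory element, searched as TCACNCCAC on both strands, was in the promoter window of 1 of the 11 called cholesterol genes that had one, Hmgcs1, and of 1.436% of all genes. It is shown as the one match in this list, in capitals.
Hmgcs1 (chr13:119690164-119690272, plus strand): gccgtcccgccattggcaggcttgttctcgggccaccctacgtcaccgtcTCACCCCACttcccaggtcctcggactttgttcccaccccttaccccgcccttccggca
The PPAR response element, searched as AGGTCA, any base and AGGTCA on both strands, was in none of the windows of 7 called Pparg-list genes and in 0.0481% of all genes. Absence says only that these letters are not in the window.

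Fatty acid oxidation genes and other PPARA targets had 7 of 35 members higher in B6 and 2 lower (median 0.20), and the lower count was 0 without B6 1, B6 4 or B6 6 and 4 on the 15 libraries alone. Cpt1a, the gatekeeper of mitochondrial import, was at 462 to 787 CPM in B6 (median 581) and 263 to 345 CPM in WSB (median 292). It did not overlap, with a log2 fold change of 0.96 ± 0.15 (edgeR adjusted p = 6.26e-07). Fgf21, a hormone of fasting and overfeeding, was at 2.28 to 8.33 CPM in B6 (median 3.01) and 0.145 to 2.23 CPM in WSB (median 0.913) and rose by 2.15. Bdh1, a ketone body enzyme, rose by 0.70, and Eci2, an enoyl-CoA isomerase, by 0.56. Cyp4a14, a fatty acid hydroxylase, was at 396 to 1474 CPM in B6 (median 589) and 0.491 to 402 CPM in WSB (median 58.9), with an edgeR adjusted p of 0.0559. It was called with Xist as a covariate (3.52, edgeR adjusted p = 0.00361), with the block (5.32, edgeR adjusted p = 0.0156), by DESeq2 and limma, and without WSB 4 or WSB 9.

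Glucose and glycogen genes had 3 of 27 members higher in B6 and 6 lower (median -0.15). Slc37a4, the glucose-6-phosphate transporter, was at 74.4 to 166 CPM in B6 (median 90.6) and 147 to 271 CPM in WSB (median 202), with a log2 fold change of -1.08 ± 0.16 (edgeR adjusted p = 2.18e-07). Gapdh, Pgk1 and Tpi1, of glycolysis, fell by 0.62, 0.38 and 0.33. Pck2 and Hk2 rose by 1.70 and 1.89 from WSB medians of 1.28 and 1.05 CPM. Pck1 and G6pc, classical insulin-controlled enzymes, were not called (log2 fold changes -0.35 ± 0.22 and -0.52 ± 0.28). Among insulin and growth hormone genes, 5 of 31 rose and 9 fell (median -0.22), and 3 rose without B6 2, WSB 5, WSB 6 or WSB 8. Fetub, a secreted fetuin, was at 234 to 345 CPM in B6 (median 296) and 531 to 1174 CPM in WSB (median 860), without overlap, and fell by 1.55. Angptl4, an inhibitor of lipoprotein lipase, fell by 1.26, Igfbp2 by 0.98 and Igf1 by 0.59. Inhbe, a hepatokine, rose by 1.62. Igfbp1 was not called (-0.47 ± 0.55).

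Apolipoprotein and lipoprotein genes had 4 of 21 members higher in B6 and 9 lower (median -0.30). Apoc3, an inhibitor of triglyceride clearance, was at 607 to 845 CPM in B6 (median 759) and 932 to 1417 CPM in WSB (median 1152), with no overlap. Mttp, which loads lipid onto apolipoprotein B, was at 256 to 464 CPM in B6 (median 398) and 475 to 611 CPM in WSB (median 516), with no overlap. They fell by 0.65 and 0.43 (edgeR adjusted p = 2.04e-05 and 0.000531), Apoh by 0.50 and Apom by 0.94. Pltp, the phospholipid transfer protein, rose by 2.38, and Pctp, a phosphatidylcholine carrier, by 1.94. Apoa4 was not called (-0.08 ± 0.38).

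Bile acid genes had 4 of 25 members higher in B6 and 5 lower (median -0.05). Cyp2c70, which makes the muricholic acids of mice, was at 126 to 585 CPM in B6 (median 381) and 821 to 1540 CPM in WSB (median 1050), without overlap, and fell by 1.55 (edgeR adjusted p = 7.20e-06). Abcc3, a basolateral exporter, was at 236 to 421 CPM in B6 (median 317) and 14.3 to 148 CPM in WSB (median 22.9). It rose by 2.97 (edgeR adjusted p = 4.94e-09), or by 3.65 without WSB 9. Cyp7b1 of the alternative pathway fell by 3.73, with overlap. It was at 21.9 to 112 CPM in B6, at 1034 to 1474 CPM in low-Xist WSB libraries and at 38.9 to 316 CPM in high-Xist ones. Abcg8, of sterol export, rose by 1.20. Cyp7a1, the rate-limiting enzyme of bile acid synthesis, was at 25.1 to 137 CPM in B6 and 17.0 to 119 CPM in WSB and was not called (0.81 ± 0.50). It was called without WSB 9 (1.24, edgeR adjusted p = 0.0418) and with the block (0.98, edgeR adjusted p = 0.0208). Cyp8b1 was not called (-0.68 ± 0.38), but it was on the 15 libraries alone (edgeR adjusted p = 0.0498), where 8 bile acid genes were lower.

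Hepatocyte genes were lower in B6. Of 15 hepatocyte markers, 9 fell and none rose (median -0.39), and the block gave 10 lower and 1 higher. Hnf4a, the transcription factor that maintains hepatocyte identity, was at 451 to 566 CPM in B6 (median 540) and 872 to 1075 CPM in WSB (median 949). The libraries were far apart, B6 had the lowest and WSB the highest mean of the 8 strains, and the log2 fold change was -0.85 ± 0.12 (edgeR adjusted p = 3.24e-08). Cps1, of the urea cycle, fell by 0.63, and Hpd, of tyrosine breakdown, by 0.62. Alb, Ttr and Asgr1, picked after their values were seen, were not called (-0.07, 0.41 and -0.06). The summed level of the markers was 83035 to 118657 CPM in B6 and 85834 to 183904 CPM in WSB, so the sums overlapped while Hnf4a did not.

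Complement and coagulation genes had 16 of 30 members lower in B6 and 1 higher (median -0.39), with 10 lower without B6 4 or by limma. The higher call, Masp1 of the lectin pathway, ended without WSB 6, B6 7, B6 8 or WSB 9. F9, clotting factor IX, was at 141 to 195 CPM in B6 (median 182) and 213 to 354 CPM in WSB (median 261). Plg, plasminogen, was at 1812 to 2861 CPM in B6 (median 2499) and 2921 to 3723 CPM in WSB (median 3546). Neither overlapped, and they fell by 0.69 and 0.55 (edgeR adjusted p = 2.43e-06 and 0.000128). F10 fell by 0.62, and Hc, complement component 5, by 0.80, the latter with overlap. Hc was at 857 to 997 CPM in B6, at 1873 to 2346 CPM in low-Xist WSB libraries and at 868 to 1344 CPM in high-Xist ones. WSB had the highest mean log2 level of the 8 strains for 11 of the 16. Of all 3380 genes lower in B6, WSB alone lay outside the range of the other 6 strains for 34.8%, and both strains for 9.35%. Of 21 acute phase genes, 6 fell and none rose (median -0.51), and the block gave 12 lower and 2 higher. Orm3, an orosomucoid, was at 1.11 to 4.10 CPM in B6 (median 1.60) and 44.9 to 95.3 CPM in WSB (median 58.5), where the other 6 strains had means of 1.06 to 9.98 CPM. Serpina3n was at 288 to 415 CPM in B6 (median 343) and 806 to 1605 CPM in WSB (median 1034). They fell by 4.97 and 1.62, Saa4 by 1.14 and Fgg by 0.74. Saa1 was not called (-1.98 ± 1.15), but it was on the 15 libraries alone (edgeR adjusted p = 0.0470). Hamp, the iron hormone, was not called (1.30 ± 0.65), but it was without WSB 9 (2.19, edgeR adjusted p = 0.00483), with the block and by limma.

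Urea cycle and amino acid breakdown had 13 of 30 members lower in B6 and none higher (median -0.44), with 7 lower without B6 6 and 8 without WSB 9. Gldc, of glycine cleavage, was at 103 to 342 CPM in B6 (median 249) and 456 to 570 CPM in WSB (median 507), without overlap, and fell by 1.10 (edgeR adjusted p = 2.20e-07). Sdsl fell by 1.08 and Ftcd, of histidine breakdown, by 0.69. Nuclear genes of the respiratory chain had 18 of 40 members lower and none higher (median -0.19). Each difference was small: Ndufv2, of complex I, was at 49.9 to 61.0 CPM in B6 (median 55.8) and 70.2 to 85.3 CPM in WSB (median 73.1) and fell by 0.41, and Atp5o, of the ATP synthase, fell by 0.47. None of the 13 mitochondria-encoded genes passed edgeR's test (median -0.08), with 0 at an unadjusted p under 0.05 and 0 called by DESeq2 or limma, 1 rose with the block and 1 fell on the 15 libraries alone.

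Chaperone genes were lower in B6, with 15 of 28 members of the ER stress and heat shock list lower and 1 higher (median -0.56). Hsp90aa1, the inducible cytosolic HSP90, was at 118 to 299 CPM in B6 (median 238) and 504 to 1080 CPM in WSB (median 595). Hspa1a, an inducible HSP70, was at 0.948 to 3.97 CPM in B6 (median 2.13) and 18.9 to 152 CPM in WSB (median 71.8). Neither overlapped, with log2 fold changes of -1.60 ± 0.22 and -5.02 ± 0.72 (edgeR adjusted p = 2.32e-08 and 9.68e-08). Hsph1 and Dnajb1, their co-chaperones, fell by 1.49 and 1.22, and Atf3 rose by 1.88. WSB had the highest mean log2 level of the 8 strains for 13 of the 15 genes, and the other 6 strains had Hsp90aa1 means of 267 to 317 CPM. Of all genes lower in B6, WSB alone lay outside the range of the other 6 strains for 34.8%, and both strains for 9.35%. A second member rose without B6 1 and without WSB 9.

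Of 34 drug-metabolising P450 genes, 4 rose and 5 fell (median -0.09), and the block gave 8 and 7. Cyp2d22 was at 131 to 210 CPM in B6 (median 152) and 375 to 476 CPM in WSB (median 439) and fell by 1.46, and Cyp2d10 fell by 0.79. Ahr, the receptor for dioxins, rose by 1.04 and Cyp2r1 by 1.22. Cyp2b10 was not called (1.71 ± 1.23). Of 35 conjugation and NRF2 genes, 9 rose and 7 fell (median 0.01). Ugt1a6a, a glucuronosyltransferase, was at 51.1 to 95.5 CPM in B6 (median 69.2) and 9.87 to 28.4 CPM in WSB and rose by 1.98. Gstt1, Gstm2 and Gsta3, glutathione transferases, rose by 1.59, 1.27 and 0.98. Sult1e1, the oestrogen sulfotransferase, was at 0.292 to 5.82 CPM in B6 and 46.0 to 205 CPM in WSB, and fell by 6.20, or by 6.84 without B6 4. Ugt2b1 fell by 2.45, with overlap, at 121 to 383 CPM in B6. Its WSB libraries were at 1595 to 2227 CPM at low Xist and at 213 to 770 CPM at high Xist.

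**Figure D4:**
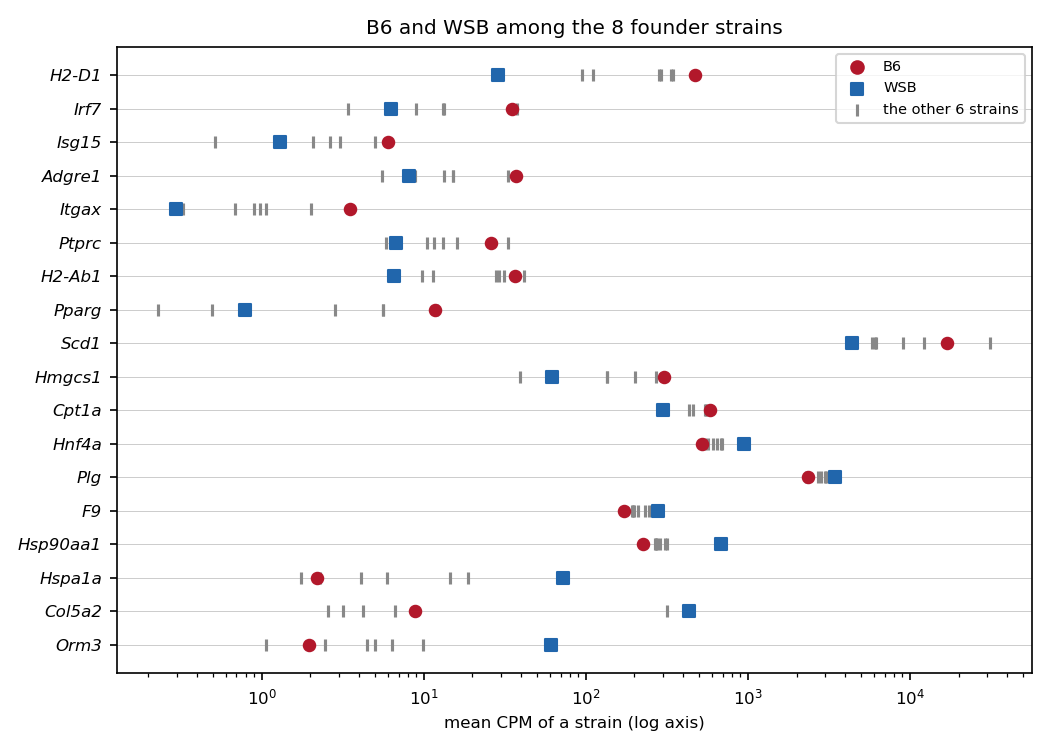
Mean CPM (log x axis) of each of the 8 strains for 18 genes (rows), with B6 as red circles, WSB as blue squares and the other 6 strains as grey ticks. WSB lies below the other strains for H2-D1 and above them for Hsp90aa1 and Hnf4a, and B6 lies at the top for Itgax.

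Among the 3769 genes higher in B6, B6 lay outside the range of the other 6 strains' means for 856, WSB for 1139, both for 411 and neither for 1363. Among the 3380 lower in B6 these numbers were 740, 1175, 316 and 1149. In both directions WSB alone lay outside the range for more genes than B6 alone.

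Cell cycle genes had 13 of 26 members higher in B6 and 2 lower (median 0.67), 8 higher without B6 6, and 8 higher and 4 lower with the block. Rrm2, a subunit of ribonucleotide reductase, was at 2.84 to 6.88 CPM in B6 (median 4.38) and 0.813 to 1.51 CPM in WSB (median 1.22), without overlap, and rose by 1.94. Mki67, a proliferation antigen, was at 2.88 to 9.58 CPM in B6 and 1.05 to 3.30 CPM in WSB and rose by 1.81, Bub1b by 2.02 and Mcm4 by 0.68. E2f7, a repressor of the cycle, fell by 2.10 and Mcm7 by 0.32. Ccnd1, cyclin D1, was at 1.26 with an edgeR adjusted p of 0.0363, and leaving out any of 9 libraries ended the call, with the highest p of 0.0909 without B6 1, as did the 15 libraries alone (edgeR adjusted p = 0.0676). Lymphocyte and macrophage markers were also higher in B6, as given above with their sums, and their part in the cell cycle counts was not tested.

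Of 20 clock genes, 2 rose in B6 and 5 fell (median -0.19). Cry1, a repressor, was at 9.06 to 20.8 CPM in B6 and 11.8 to 57.7 CPM in WSB (median 35.3), and fell by 1.44. Clock fell by 0.52. The E-box, searched as CACGTG, was in the promoter window of 1 of the 6 called clock genes that had one, Cry1, and of 8.093% of all genes. Counting members called or not, 5 of the 17 with a window held it, so it did not mark the called ones. Nr1d1, REV-ERB alpha, was at 21.0 to 87.6 CPM in B6 and 5.52 to 79.2 CPM in WSB, with an edgeR adjusted p of 0.0313 that was above 0.05 when any of 7 libraries was left out (highest 0.0642, without WSB 6). Dbp, a clock output, was at 95.1 CPM in B6 7 and at most 11.7 CPM in WSB, and its log2 fold change of 2.75 had an edgeR adjusted p of 0.0382. The call ended without B6 7 (0.59, edgeR adjusted p = 0.687), with Xist as a covariate (0.86, edgeR adjusted p = 0.511), with the block, by limma, and when any 1 of the WSB libraries other than WSB 9 was left out. The number of clock genes higher fell to 0 without any of WSB 1, WSB 3, WSB 4, WSB 5 or WSB 6, and the number lower to 3 without WSB 5. Times of collection are not in the labels, and time of day was not tested. Of 17 immediate early genes, which respond within minutes to handling and stress, 6 rose and none fell (median 0.65), with 3 without B6 2, B6 4, WSB 1 or WSB 8, and 1 fell without B6 3, WSB 3 or WSB 9. Fosb was at 1.46 to 43.3 CPM in B6 and 0.211 to 3.13 CPM in WSB and rose by 4.05, or 4.81 without WSB 4, and Egr2 rose by 2.99, or 2.36 without B6 4.

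Major urinary proteins, pheromone carriers made mainly in male liver, had 2 of 19 members higher in B6 and 9 lower (median -2.49). Mup17 was at 28.9 to 1335 CPM in B6 (median 175) and 1667 to 27853 CPM in WSB (median 18483), and fell by 5.54, or by 6.44 without B6 7. Both strains divided by Xist, so the WSB median lies between the sets. WSB was at 24771 to 27853 CPM at low Xist and 1667 to 12196 CPM at high Xist. B6 was at 266 to 1335 CPM at low Xist and 28.9 to 175 CPM at high Xist. Mup10 was at 66.4 to 610 CPM in B6 (median 339) and 3.56 to 29.9 CPM in WSB (median 10.6) and rose by 4.81. Mup13, at 0.0897 to 6.59 CPM in B6 and 144 to 4214 CPM in WSB, fell by 9.76. Its WSB libraries were at 3326 to 4214 CPM at low Xist and 144 to 1221 CPM at high Xist. Mup15, at 11.7 to 875 CPM in B6 and 0.230 to 3.15 CPM in WSB, rose by 7.26, or by 6.55 without B6 7. These genes are near-identical copies, and reads could move among them. Of 20 male-biased liver genes, 1 rose and 7 fell (median -1.57), with 4 lower without any of B6 1, B6 2, B6 3, B6 4 or WSB 5, 10 with Xist as a covariate or the block, and 11 without B6 7 and WSB 9 together. Serpina1e was the one that rose, by 6.05, or by 5.13 without B6 7. None of the 21 female-biased genes passed edgeR's test (median -0.01), with 2 at an unadjusted p under 0.05, 1 called by DESeq2 and 0 by limma, while with Xist as a covariate 3 rose and 1 fell and with the block 4 rose and 1 fell.

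The genes with the largest differences, by fold change among protein-coding genes at 5 CPM or more in either strain without overlap, included both immune and strain-specific genes. Mndal, an interferon-inducible DNA sensor family member on chromosome 1, had 2378 reads over the 7 B6 libraries and 2 over the 8 WSB libraries, a ratio of 1489 after scaling by depth (95% interval 412 to 12300, exact binomial, for counting error only). Raet1e, a ligand of the NK receptor NKG2D, was at 1.81 to 13.1 CPM in B6 and at most 0.0485 CPM in WSB. Tgtp1, an interferon-induced GTPase, was at 3.72 to 27.2 CPM in B6 and at most 0.443 CPM in WSB, and its log2 fold change of 6.76 was 7.53 without WSB 9. Nxpe2 (7.83), Olig1 (8.13), Acpp (7.72), H2-Q1 (7.56), Folr2 (7.03), H2-Eb1 and Mup15 made up the rest of the 10.

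Among genes lower in B6, Ces2h, a carboxylesterase, was at 0.164 to 1.29 CPM in B6 and 81.6 to 103 CPM in WSB. Its log2 fold change was -7.72 ± 0.45 (edgeR adjusted p = 3.94e-21), or -8.35 without B6 2. Nuggc was at 0.0299 to 0.0584 CPM in B6 and 0.207 to 83.2 CPM in WSB. Its WSB libraries divided by Xist, at 49.0 to 83.2 CPM at low Xist and 0.207 to 30.1 CPM at high Xist, with WSB 9 the lowest. Rnaset2a, an RNase, was at 0 to 0.568 CPM in B6 and 7.24 to 14.7 CPM in WSB, and its log2 fold change of -6.80 was -8.89 without B6 2. Ceacam2 (-6.19), Tpm3-rs7 (-6.10), Ren1, Mup13, Hba-a1 and Sult1e1 were among the 10 as well. Ren1, which encodes renin, was at 0 to 0.0948 CPM in B6 and 2.47 to 21.6 CPM in WSB and fell by 7.71.

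Of 28 genes known to differ between mouse strains, 8 were higher in B6 and 8 lower (median 0.11). A further fixed list, of 47 genes taken mainly from the lists above, had 26 higher and 3 lower (median 1.26). Nnt, a mitochondrial transhydrogenase mutated in a B6 substrain, was at 52.8 to 65.2 CPM in B6 (median 59.5) and 94.5 to 143 CPM in WSB (median 117), without overlap, and fell by 1.00. Raet1d rose by 6.63, Gvin1, a large interferon-inducible GTPase, by 5.99, Apol9b by 2.04, Tlr4 by 0.93 and Alad by 0.53. Ctse, cathepsin E, was at 0.117 to 1.30 CPM in B6 and 11.8 to 70.5 CPM in WSB and fell by 5.96. Serpina3k was at 1658 to 6995 CPM in B6 and 9182 to 21815 CPM in WSB and fell by 2.17, Ide by 0.37, and Hao1 by 0.70 (edgeR adjusted p = 0.0282, at most 0.0614 with 1 library left out). Nnmt, Glo1, Abcb1a, Abcb1b, Dysf, Ceacam1, Lepr, B4galnt1, Nlrp12, Apol9a and Entpd4 were not called, with log2 fold changes from -0.55 to 0.90. B4galnt1 was called with the block (-0.30, edgeR adjusted p = 0.00765) and on the 15 libraries alone (edgeR adjusted p = 0.0456), and Ceacam1 on the 15 libraries alone (edgeR adjusted p = 0.0380).

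Because the second component followed Xist, the difference between strains in the slope on Xist was tested in all 60 libraries, a comparison added after the data had been seen. Of 16165 genes, 398 (2.46%) were called by edgeR, 274 (1.7%) with B6 minus WSB lower at high Xist and 124 (0.767%) with it higher. The 5 with the smallest p, chosen after their values were seen, were Cda, Cyp2c38, Cyp2c39, Dnaja4 and Prlr. Cyp2c38, a P450, was at 140 to 409 CPM in the high-Xist and 0.0307 to 0.485 CPM in the low-Xist WSB libraries, against 102 to 177 and 52.5 to 74.5 CPM in B6 (edgeR adjusted p = 5.64e-09). Prlr, the prolactin receptor, was at 285 to 598 and 8.81 to 16.3 CPM in WSB and 353 to 478 and 69.8 to 103 CPM in B6 (edgeR adjusted p = 5.49e-07). In both genes the low-Xist WSB libraries stood below every other library.

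Some lipid genes were among those whose strain difference varied with Xist. The share to set beside each count is the 2.46% of all genes tested that were called. In lists this short, counts of 0 or 1 are near that share. Of 17 lipid droplet genes and 24 cholesterol synthesis genes, 0 were called. Fatty acid and triglyceride synthesis had 2 of 24 called, and lipoprotein genes 1 of 21. Of 35 fatty acid oxidation and PPARA genes, 5 were called, Acot1, Acot2, Vnn1, Cyp4a10 and Cyp4a14, and in each the low-Xist WSB libraries were the lowest. Cyp4a10, a fatty acid hydroxylase picked after its values were seen, was at 3.42 to 7.27 CPM in low-Xist WSB libraries and 446 to 1222 CPM in all B6 libraries (edgeR adjusted p = 0.00116). Vnn1, a pantetheinase picked likewise, was at 1.96 to 5.13 CPM in low-Xist WSB and at 26.2 CPM or more in all others (edgeR adjusted p = 0.00022). Of 12 Pparg-list genes 4 were called, Pparg, Cd36, Mogat1 and again Acot1. Pparg differed by 5.31 between strains at low Xist and by 2.75 at high Xist, a difference in slope of -2.57 ± 0.67 (edgeR adjusted p = 0.0241). It was 0.0727 in the 15 libraries alone. Cd36 differed by 2.27 at low and 0.08 at high Xist (edgeR adjusted p = 0.0173), and in high-Xist libraries it ranged from 53.1 to 197 CPM in B6 and from 63.5 to 164 CPM in WSB. Calls were not limited to lipid lists. Of 20 clock genes 9 were called, and of 21 female-biased genes 7. Glucose and glycogen genes had 5 of 27 called, P450 genes 4 of 34 and conjugation and NRF2 genes 3 of 35. Major urinary proteins had 3 of 19 called and male-biased genes 3 of 20. Of 41 type I interferon genes and 30 complement and coagulation genes, 0 were called. Label number, Xist and whatever else the numbers share cannot be told apart here.

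**Figure D5:**
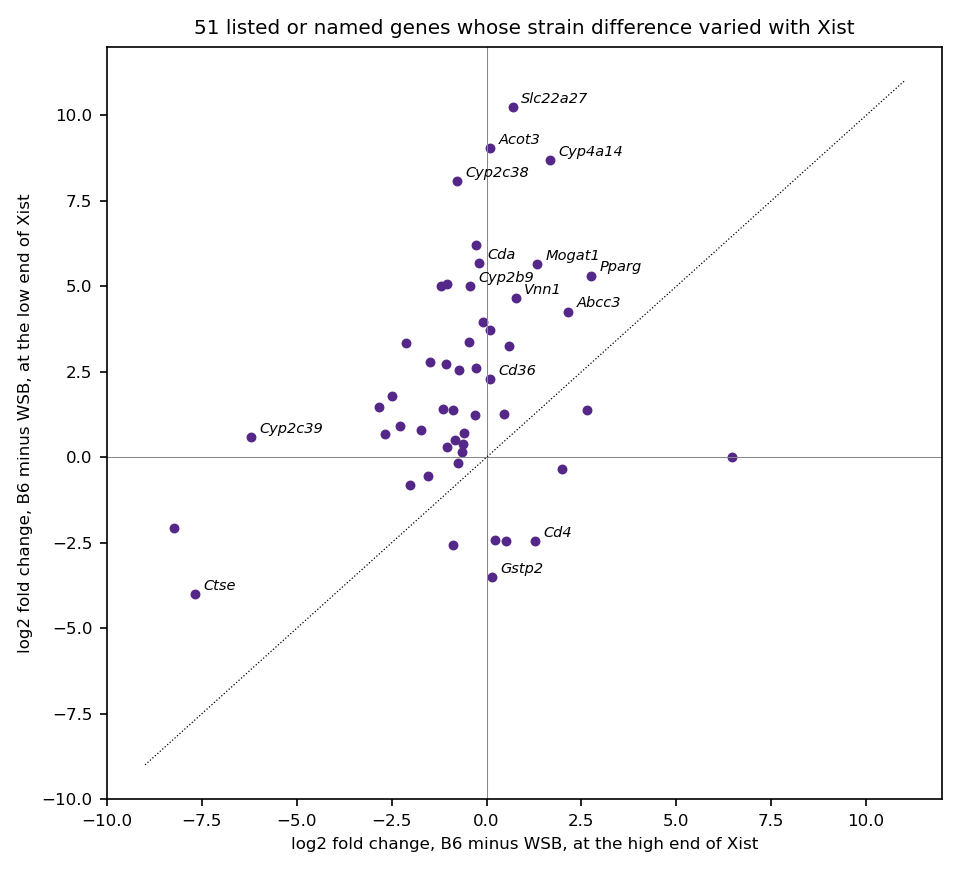
Log2 fold change, B6 minus WSB, at the high end of Xist (x axis) and at the low end (y axis) for the 51 listed or named genes whose strain difference varied with Xist in the edgeR fit, with equal values on the dotted line. Cyp4a14, Mogat1 and Pparg lie above the line, with larger strain differences at low Xist, and Gstp2 and Cd4 below it.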

How the data were processed

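Liver libraries, made from polyadenylated RNA per the labels' protocols, cover 8 strains. The authors deposited estimated counts per gene, not normalised, of which 21.0% of values were not whole, and variance-stabilised values on a log2 scale. Values were read as such because totals differ between libraries in one table and are alike in the other. Per the submitters' processing notes the build was GRCm38 and DESeq2 was used. What aligned and counted the reads, and whether strand was used, is not given in the sources used here. Since edgeR takes whole numbers, and whole counts had been planned for, values were rounded. Of 61 labelled samples, B6 5 had no matching column and is not analysed here, and 1 column matched no sample.

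Counts of all 60 libraries were modelled by strain with edgeR 4.0.16 under R 4.3.3, using TMM scaling, filterByExpr and the quasi-likelihood test, which covered 16165 of 18754 genes. P-values were two-sided and Benjamini-Hochberg adjusted over all genes, with a threshold of 0.05. Each SE was the absolute log2 fold change over the root of F. DESeq2 1.42.0 and limma 3.58.1 served as alternatives, with the others listed in the closing section. Tested on simulated counts of 16165 genes, the B6 against WSB contrast recovered 33 of 100 genes changed by 0.5 and 66 of 100 changed by 1 on the log2 scale. No other gene was changed there, a far smaller share than the 44.2% called in the data. The adjusted threshold was therefore stricter in the simulation, and its recovered shares do not carry over to these data. Depth was 19.98 to 44.9 M reads per library, and reads copied by PCR are not independent molecules, so intervals cover counting error only.

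The members and lists were chosen with earlier results of these data known. Named genes were the 10 largest in each direction (at least 5 CPM, not overlapping), up to 4 called members of each list by smallest p in its main direction and 2 in the other, and every gene of 2 fixed lists, of which some are not reported here. Genes of doubled symbol were left out of lists. The Xist comparison was added after seeing the data. Deviations of the 6 same-numbered pairs of libraries from their strain means correlated at 0.244 to 0.337, and 1 of 6 B6 libraries matched its own number best. Same-numbered libraries also shared high or low Xist, so these correlations cannot tell pairing by number from a shared Xist level. The block by number was therefore used only as an alternative. Within a strain, libraries differed by at least 22.96 chi-square per gene, so none was counted as a duplicate. Counts of near-identical genes (Mup, globin, P450, Gst, Serpina1 and H2 families) are uncertain, since how shared reads were divided is not known here.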

Additional observations from a re-analysis of the deposited data

Results flagged for a closer look

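Among 440 checks of a gene in a strain, 21 had 1 library farther from the others than Dixon's 95% limit, where chance gives about 1 in 20. WSB 9 held 5 of them. Nuggc was at 0.207 CPM there (others from 10.4), Abcc3 at 148 CPM (others to 42.6), Dbp at 11.7 CPM (others to 1.92), Alad at 74.5 CPM (others to 52.9) and Serpina3k at 9182 CPM (others from 18156). B6 7 held 5 as well, with Slc37a4 at 166 CPM, Gldc at 103 CPM, Hsph1 at 47.3 CPM, Clock at 36.3 CPM and Mcm7 at 8.60 CPM. In B6 6, Apoh was at 1259 CPM, H2-D1 at 571 CPM and Spp1 at 82.1 CPM, the last above the 25.6 to 40.8 CPM of the others. In B6 2, Nxpe2 was at 7.84 CPM, Mttp at 256 CPM and Mup10 at 66.4 CPM. Nr1d1 was at 21.0 CPM in B6 1. In WSB 3, Rnaset2a was at 7.24 CPM and Isg15 at 0.613 CPM, in WSB 6 Serpina3n was at 1605 CPM, and in WSB 7 Plac8 was at 2.75 CPM.

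The slope on Xist differed between the strains for 17 of the named genes reported here in the edgeR interaction test. The difference in slope, B6 minus WSB in log2 units, was negative for Cyp4a14 (-7.01), Cyp2c39 (-6.79), Dbp (-6.22), Mogat1 (-4.33), Abcb1a (-3.80), Ctse (-3.68), Pparg (-2.57), Abcb1b (-2.56), Cd36 (-2.20), Abcc3 (-2.11), Slc37a4 (-0.99) and Agpat2 (-0.60). On the 15 libraries alone the edgeR adjusted p was 0.0696 for Abcc3 and 0.0727 for Pparg, and Mogat1 was not tested there. The difference in slope was positive for Cd4 (3.72), Gstp2 (3.65), Gstp1 (2.66), Nlrp12 (2.35) and Cyp2c70 (1.67). Cd4 was at 7.42 to 9.49 CPM in low-Xist WSB libraries, and Gstp1, a glutathione transferase, at 1973 to 2572 CPM there and at most 388 CPM in every B6 library.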

How the results depend on the processing

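The number of genes called stayed within 1.5 times of 7149 under each alternative except a fold limit. It was 6913 on the 15 libraries alone, 7131 with RLE factors, 7402 without the filter, 7423 with Xist as a covariate, 7319 by DESeq2, 7136 by limma on the transformed values and 7038 without B6 7 and WSB 9 together, an alternative chosen after seeing the data. Leaving out 1 library gave 6617 to 7144 in all, 3384 to 3675 higher and 3231 to 3469 lower. Requiring a log2 fold change of at least 1 left 2569, with 1845 higher and 724 lower. The interaction with Xist called 581 genes on the 15 libraries alone, 411 with RLE factors and 340 without the filter, against 398. No named gene that was called changed sign under these alternatives.

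With the label numbers as a replicate block (6 pairs), 6520 genes were called, 3265 higher and 3255 lower. Beside the calls named in the report, the block ended those of Cyp2c39, Dbp, Gstp1, Gstp2, Slc4a1 and Cd4 and added Cyp7a1, Hamp, Cd36, Cyp4a14 and B4galnt1 (of 215 named genes it tested), and it changed no other named call. The block fit used fewer libraries and tested fewer genes. On the 15 libraries alone the calls of Ccnd1 and Slc4a1 ended and Cyp8b1, Saa1, Ceacam1 and B4galnt1 were called. With Xist as a covariate those of Cd4 and Dbp ended and Cd36 and Cyp4a14 were called. Limma ended those of Mlxipl, Acsl1, Cd4, Slc4a1, Cyp2c39, Dbp and Gstp1 and added Cyp4a14 and Hamp, and DESeq2 added Cyp4a14. Limma on the transformed values gave smaller fold changes for genes of low counts, such as Klrb1c (0.78 against 3.55). On simulated counts 33 of 100 genes changed by 0.5 on the log2 scale were recovered. The simulation changed far fewer genes than the 7149 called here, which made its adjusted threshold stricter. How many differences of that size go uncalled in these data was therefore not measured.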
